A study of Caenorhabditis elegans with 2 samples.

Results

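The vitellogenin genes of Caenorhabditis elegans, vit-1 to vit-6, encode the yolk proteins. They are 6 of the 19973 protein-coding genes annotated on the nuclear chromosomes. They were taken by name, and every peak summit in a gene or up to 1 kb on either side of it was collected from 4 lists of MES-4 peaks. The lists come from chromatin immunoprecipitation with sequencing (ChIP-seq) on whole hermaphrodite worms at the young adult stage. All animals were of strain RW10325, which stably carries MES-4 fused at its C terminus to GFP and FLAG tags, and they were collected 63 h after synchronisation by starvation at the first larval stage. There was 1 group of 2 biological replicates of this 1 line, both sheared by sonication and immunoprecipitated with an anti-GFP antibody. Chromatin from intestine, germline and all other tissues was mixed, so the tissue behind a peak cannot be told apart.

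Vitellogenins are large lipoproteins related to apolipoprotein B of vertebrates. The intestine of the adult hermaphrodite makes them in great quantity and secretes them into the body cavity, and growing oocytes take them up through the receptor RME-2. MES-4 adds methyl groups to lysine 36 of histone H3. It is known for its role in the germline and for its place on autosomes, where it maintains that mark on genes expressed in germ cells. The vit genes are therefore a case of somatic genes with high transcription in the adult, and whether such genes appear among the peaks was the question. Transcription itself was not measured in these files.

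Of the 6 genes, 5 lie on X and 1 on chromosome IV (ce11, the WBcel235 assembly, 1-based). On X, vit-1 spans 7727889 to 7733168 (plus strand) between spp-14 and set-12. The vit-2 gene spans 5101042 to 5106169 (plus) between acn-1 and C42D8.9. The neighbours vit-3, at 3567355 to 3572549, and vit-4, at 3558769 to 3563965, both lie on the minus strand, with T27A10.5 beyond vit-3 and rgs-7 beyond vit-4. The vit-5 gene spans 3403471 to 3408603 (plus) between C04F6.9 and unc-78. On chromosome IV, vit-6 spans 8261157 to 8266459 (plus) between K07H8.7 and K07H8.8. Their lengths run from 5128 bp for vit-2 to 5303 bp for vit-6.

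The sequences differ greatly in how far one gene can be told from another. The part of this in the counts below was not tested. The vit-3 and vit-4 genes were 98.0% identical over aligned bases, vit-4 and vit-5 97.4%, vit-3 and vit-5 96.9%, and vit-1 and vit-2 93.3%. The vit-6 gene shared 64.8% to 66.9% with the other 5. To show this, 100 bases from the middle of vit-3 and the aligned stretches of vit-4 and vit-5 are given in the direction of transcription, with differences from vit-3 in capitals. The stretches lie on X, at 3569903 to 3570002 for vit-3, 3561339 to 3561438 for vit-4 and 3406014 to 3406113 for vit-5.
vit-3: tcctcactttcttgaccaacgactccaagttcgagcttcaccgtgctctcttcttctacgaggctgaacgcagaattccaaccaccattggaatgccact
vit-4: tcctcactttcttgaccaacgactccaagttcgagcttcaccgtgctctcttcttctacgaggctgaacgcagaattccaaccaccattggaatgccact
vit-5: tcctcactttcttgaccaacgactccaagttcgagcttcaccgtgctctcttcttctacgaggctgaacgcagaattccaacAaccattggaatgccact
Here vit-4 had 0 differences from vit-3 and vit-5 had 1.

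The next stretches are 100 bases around the strongest pooled summit of vit-2 (X, 5101151 to 5101250) and the aligned bases of vit-1 (X, 7728009 to 7728108), with differences from vit-2 in capitals, and 100 bases around the strongest pooled summit of vit-6 (IV, 8263648 to 8263747). They show what the sequence under a recovered summit looks like.
vit-2: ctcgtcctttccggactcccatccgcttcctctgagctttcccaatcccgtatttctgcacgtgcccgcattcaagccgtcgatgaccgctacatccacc
vit-1: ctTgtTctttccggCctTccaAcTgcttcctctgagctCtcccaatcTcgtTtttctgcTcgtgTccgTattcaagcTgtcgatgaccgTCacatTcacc
vit-6: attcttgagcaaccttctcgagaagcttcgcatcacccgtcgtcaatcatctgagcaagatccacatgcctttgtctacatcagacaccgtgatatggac
Here vit-1 and vit-2 differed at 16 of the 100 bases, and every word of 36 bases starting in these 3 stretches occurred once in the genome.

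No vit gene carried a reproducible peak. The reproducible list, which the authors filtered for agreement between replicates by the irreproducible discovery rate (IDR), held 440 nuclear peaks, and 0 of the 6 vit genes had a summit there in the gene or within 1 kb. By the same rule 2.73% of all protein-coding genes had one, as did 3.39% of protein-coding genes of 4 to 6 kb and 4.07% of those of that length on X. Inside the gene body the background was 1.01%. With 6 genes, a share as low as these could not be told from 0.

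In the relaxed lists, which the authors made as input for IDR and which mix peaks with background, vit summits were present. None ranked among the 440 strongest peaks of its list. The pooled relaxed list had 12008 nuclear peaks, with 10 summits at 5 of the 6 vit genes. The background there was 45.5% of all protein-coding genes, 58.8% of those of 4 to 6 kb and 49.9% of those of that length on X. The list of replicate 1 had 15372 nuclear peaks, with 17 summits at 5 of the 6, against 53.0%, 66.0% and 61.1% in the same 3 sets of genes. The list of replicate 2 had 14947 nuclear peaks, with 11 summits at 3 of the 6, against 51.9%, 66.5% and 57.8%. A summit in a relaxed list was thus common at genes of this length, and 3 or 5 of 6 vit genes lay on either side of that background.

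Inside the gene bodies the same lists each held 3 vit genes. These were vit-1, vit-2 and vit-6 in the pooled list, against 29.4% of all protein-coding genes. They were the same 3 in replicate 1, against 35.6%, and vit-2, vit-3 and vit-6 in replicate 2, against 34.0%. Genes of 4 to 6 kb were split by repeated sequence, as described below. In 1967 of them at least 50% of 36-base words occurred once in the genome. Of these, 44.8%, 53.9% and 51.7% had a body summit, in the same order of lists. Of the 41 with under 50%, the shares were 9.76%, 7.32% and 14.6%. The larger class holds vit-1, vit-2 and vit-6, and the smaller one vit-3, vit-4 and vit-5. The count of 3 of 6 mixes the 2 classes, so the share of neither is its background. The vit-2 and vit-6 genes had a summit in the body in all 3 relaxed lists. The pooled list was made from the reads of both replicates, so it is no separate measurement.

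**Figure D1:**
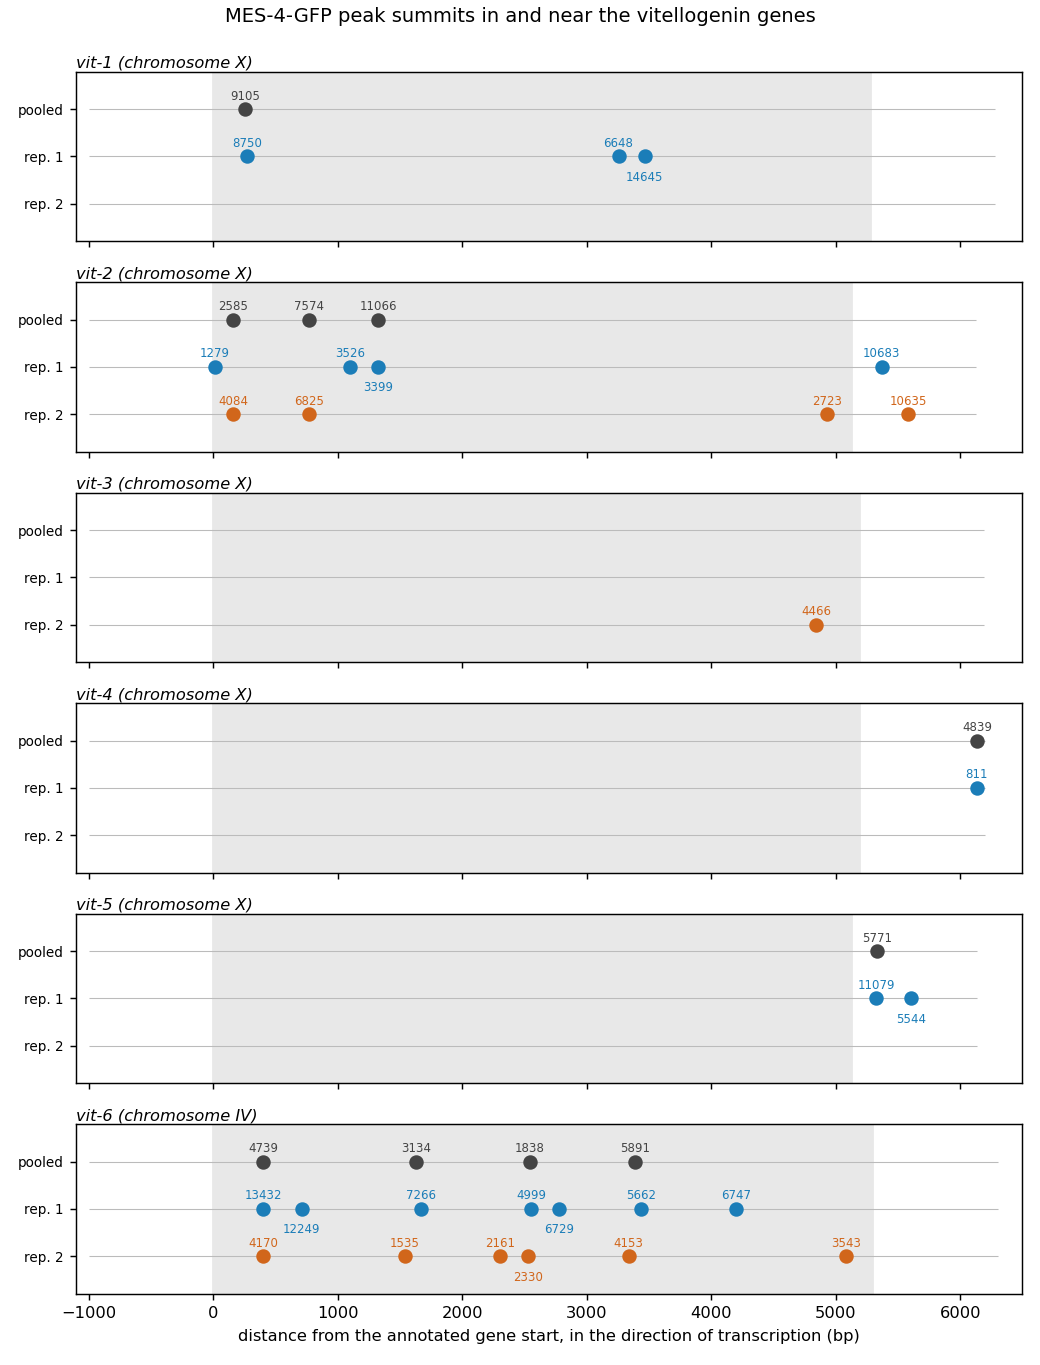
Position of each peak summit along the 6 vit genes in the pooled list and in the lists of replicates 1 and 2, as distance from the annotated gene start in bp. Grey marks the gene body, the thin lines run over the gene and 1 kb on either side, and the number at each point is its rank by signal among the nuclear peaks of its list. The vit-6 body carries 4, 7 and 6 summits, while the vit-4 and vit-5 bodies carry none.

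The strongest vit summit of the pooled list lay in vit-6, with rank 1838 and signal 48.2, where signal is the peak caller's value in the authors' file and is comparable within a list alone. The weakest nuclear peak of the reproducible list had signal 77.3 on the same scale. The −log10 q value, a measure of false discovery also given by the authors, was 0.541 for that vit-6 summit, compared with at least 1.98 in the reproducible list. In replicate 2 the strongest vit summit was again in vit-6, with rank 1535 and −log10 q 0.799. In replicate 1 it lay downstream of vit-4, with rank 811 and −log10 q 1.22, and the strongest in a gene body was at vit-2, with rank 1279. All vit summits therefore ranked below the 440 strongest peaks of each list. The median signal of nuclear peaks was 35.1 in the pooled list, 19.6 in replicate 1 and 18.6 in replicate 2. In each list most vit summits lay above that median and the rest below it.

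**Figure D2:**
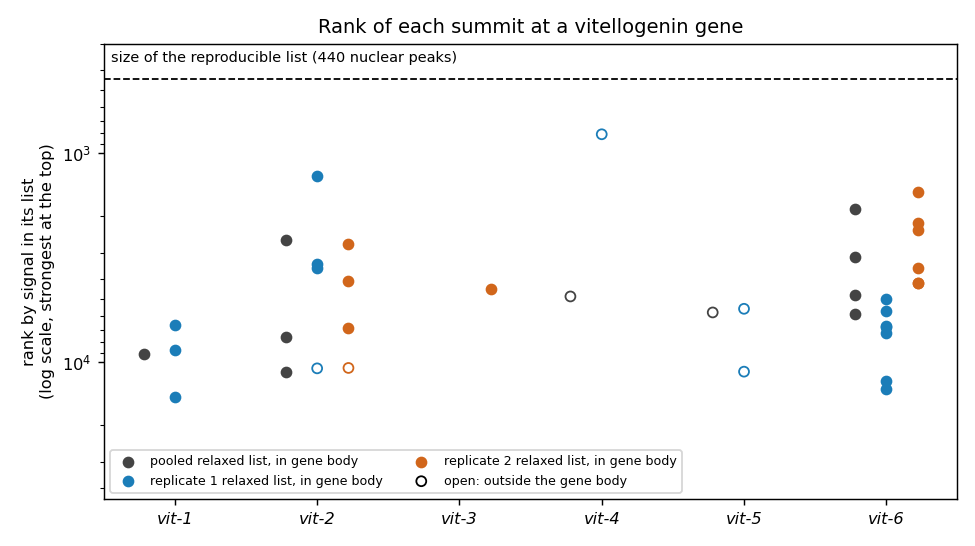
Rank by signal of each vit summit in its list, on a log axis with the strongest at the top. Filled points lie in the gene body, open points outside it, and colours give the pooled list and the lists of replicates 1 and 2. The dashed line marks rank 440, the size of the nuclear reproducible list, and every point lies below it, from rank 811 down to rank 14645.

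The vit-6 gene, on chromosome IV and the one autosomal member, carried the most summits. Its product is a yolk protein precursor that is cut into smaller yolk polypeptides. In the pooled list the 4 summits lay 402, 1629, 2541 and 3391 bp from the gene start, with ranks 4739, 3134, 1838 and 5891. In replicate 1 there were 7 summits, with ranks from 4999 to 13432, and in replicate 2 there were 6, with ranks from 1535 to 4170. All 6 of replicate 2 ranked higher in their list than any of the 7 did in replicate 1.

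Some vit-6 summits had close counterparts in both replicates. The summit near the start lay at 403 bp in replicate 1 and 404 bp in replicate 2, in exon 2 of the annotated transcripts. Another lay at 2555 bp in replicate 1 and 2531 bp in replicate 2, in the long exon 3, around the stretch printed above. Further summits lay less close, at 1673 and 3436 bp in replicate 1, and at 1540 and 3338 bp in replicate 2. Their peaks overlapped. The summits at 4197 bp in replicate 1 and 5083 bp in replicate 2 had no overlapping peak in the other replicate. A summit at 712 bp in replicate 1 was in an intron, and all other vit-6 summits were in coding exons. No vit-6 summit lay upstream of the gene.

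Few genes of this length held as many summits as vit-6. Of the 2008 protein-coding genes of 4 to 6 kb, 12 (0.598%) had at least 7 summits in or within 1 kb of the gene in replicate 1, and 17 (0.847%) had at least 6 in replicate 2. In the pooled list 85 (4.23%) had at least 4. Among the autosomal genes of that length the share with at least 4 in the pooled list was 5.08%. The median gene of 4 to 6 kb had 1 summit in each relaxed list, and the highest had 7 in the pooled list and 9 and 8 in replicates 1 and 2. These counts are a description and carry no test.

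The vit-2 gene carried summits at its start in both replicates. The replicate 1 summit lay 11 bp into the gene (X, peak 5100833 to 5101272), with rank 1279, signal 31.1 and −log10 q 0.788. The replicate 2 summit lay 159 bp in (X, peak 5100986 to 5101415), with rank 4084 and −log10 q 0.273. These 2 peaks overlapped, and the pooled list had its strongest vit-2 summit at the same 159 bp, with rank 2585. The strongest vit-2 summit of replicate 2 was elsewhere, 4932 bp from the start in the last exon, with rank 2723, and replicate 1 had no peak over it.

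Further along vit-2, replicate 1 had summits at 1100 and 1324 bp, with ranks 3526 and 3399, and replicate 2 had one at 771 bp, with rank 6825. Beyond the gene, a summit of replicate 1 lay 243 bp downstream and one of replicate 2 lay 454 bp downstream, with ranks 10683 and 10635, and both were inside the neighbour C42D8.9. As many as the 4 vit-2 summits of replicate 1 were found at 156 genes of 4 to 6 kb (7.77%), and as many as the 4 of replicate 2 at 166 (8.27%).

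The replicate 1 peak at the start of vit-2 covers much of the known vitellogenin promoter, so the 250 bases upstream of that gene are shown (X, 5100792 to 5101041, plus strand). Capitals mark matches to the vitellogenin promoter elements VPE1 (TGTCAAT) and VPE2 (CTGATAA, a site of the GATA type), which were searched on both strands and did not overlap each other here.
vit-2 upstream: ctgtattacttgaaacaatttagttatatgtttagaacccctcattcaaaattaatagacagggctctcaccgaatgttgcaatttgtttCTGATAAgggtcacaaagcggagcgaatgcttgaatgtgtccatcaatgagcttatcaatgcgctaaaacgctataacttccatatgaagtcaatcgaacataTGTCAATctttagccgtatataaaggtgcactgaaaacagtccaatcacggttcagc
The VPE1 match of vit-2 lay 57 to 51 bases upstream of the start and the VPE2 match 160 to 154 bases upstream. All 6 vit genes held VPE1 in their 250 upstream bases, compared with 4.81% of 19972 protein-coding genes, and 5 held VPE2, compared with 7.21%. These elements are known from vitellogenin promoters themselves, so the comparison is a description and no new evidence. The vit-3 gene had no VPE2 match in this window. None of the 6 genes had a summit upstream of its start in any of the 4 lists.

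The vit-1 gene, the closest copy of vit-2, had summits in replicate 1 and none in replicate 2. They lay at 270, 3256 and 3465 bp from the start, with ranks 8750, 6648 and 14645, all in coding exons. The pooled list held 1, at 256 bp, with rank 9105 and −log10 q 0.0446. This position aligned with 245 bp in vit-2, which lies inside the pooled peak at the start of vit-2. The 2 further summits of vit-1 aligned with 3240 and 3449 bp in vit-2, where no list had a vit-2 summit.

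The vit-3, vit-4 and vit-5 genes, which are near-identical copies, were all but empty in their bodies. The one summit in any of their bodies was in vit-3 in replicate 2 (X, peak 3567492 to 3567921), 4842 bp from the start in its last exon, with rank 4466 and −log10 q 0.251. No peak of replicate 1 or of the pooled list overlapped it. The vit-4 and vit-5 bodies had 0 summits in all 4 lists.

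What stood near vit-4 and vit-5 lay outside them. The vit-4 summit lay 937 bp beyond the end of the gene in replicate 1 (X, peak 3557612 to 3558051) and 942 bp beyond it in the pooled list, just beyond the end of rgs-7, which encodes a regulator of G protein signalling. It was the vit summit of highest rank in replicate 1, at 811, but ranked 4839 in the pooled list and had no counterpart in replicate 2. The vit-5 summits lay 192 and 476 bp downstream in replicate 1, with ranks 11079 and 5544, and 197 bp downstream in the pooled list, with rank 5771. All of these were inside unc-78, which encodes an actin-binding protein of muscle.

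The 6 gene bodies differed in how much of their sequence is repeated in the genome. Of the words of 36 bases starting in the gene, 17.5% occurred once in the genome for vit-4, 21.0% for vit-3 and 42.8% for vit-5. The shares were 80.8% for vit-1, 80.2% for vit-2 and 100% for vit-6. The genes with a body summit in no list, vit-4 and vit-5, were thus among the 3 with the lowest shares, but vit-3 had one in replicate 2 and vit-1 had none there. The median protein-coding gene had 100% and the median gene of 4 to 6 kb 99.7%. All non-unique words shared between members lay within the pair of vit-1 and vit-2 or among vit-3, vit-4 and vit-5. The vit-3 and vit-4 genes shared 3889 such words, and no protein-coding gene outside the family shared any with a vit gene.

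The vit peaks varied in how much of their sequence was unique. In the vit-3 peak 56.7% of the words of 36 bases were unique, against 21.0% over the gene, and the peaks downstream of vit-4 and vit-5 had 100%. In the peaks at vit-1 and vit-2 the share was 73.9% to 100%. Some of these lay below the share over their gene, such as the vit-1 peaks at 3256 bp (73.9%) and 3465 bp (75.5%), against 80.8% over vit-1, and the vit-2 peaks at 771 bp. With words of 100 bases the gene shares were 33.9% for vit-4, 39.9% for vit-3 and 72.7% for vit-5, so the order of these 3 was the same.

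**Figure D3:**
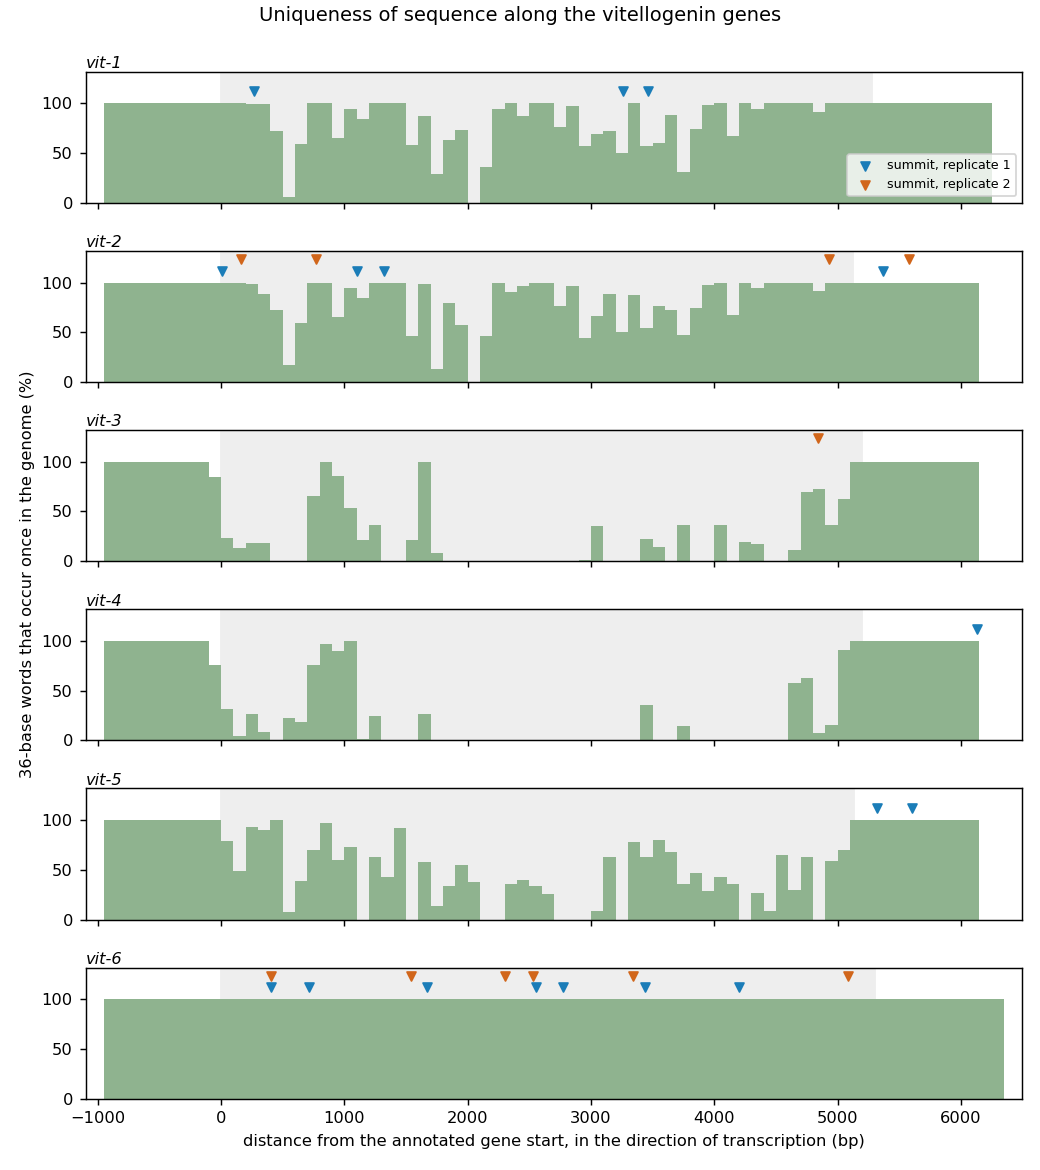
Share of 36-base words that occur once in the genome, in bins of 100 bp along each vit gene (green, 0 to 100%), with distance from the annotated gene start in bp. Grey marks the gene body, and triangles mark the summits of replicates 1 and 2. The vit-6 gene is at 100% throughout, while most of vit-3 and vit-4 is near 0, with the vit-3 summit in a less repeated part near the end.

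Genes of this length with repeated sequence, vit-3, vit-4 and vit-5 among them, less often had a summit in the body. Of the 41 protein-coding genes of 4 to 6 kb with under 50% unique words, which include vit-3, vit-4 and vit-5, 4 had a summit in the body in the pooled list (9.76%), 3 in replicate 1 (7.32%) and 6 in replicate 2 (14.6%). The 6 in replicate 2 include vit-3. Among the 1967 genes of that length with 50% or more, the shares were 44.8%, 53.9% and 51.7%. This split was chosen after the vit values were seen. No label or file header read here states the read length or how reads matching several places were treated, and the part of repeated sequence in the absence of peaks was not tested. An empty vit-3, vit-4 or vit-5 body is therefore uncertain as a measurement of MES-4 there.

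Peaks recurred between replicates at vit-2 and vit-6 alone. Of the 17 vit summits of replicate 1, 9 had a peak overlapping one of replicate 2 by at least 1 bp (exact 95% Clopper-Pearson interval 27.8% to 77.0%), against 39.3% of all nuclear peaks of replicate 1. Of the 11 vit summits of replicate 2, 8 had a peak overlapping one of replicate 1 (39.0% to 94.0%), against 40.4% of all. These intervals cover counting error and take summits as independent, which summits in 1 gene are not. Both were wide, and both included a share close to that of all peaks.

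The vit peaks had a higher median GC content than all peaks and lay mostly in coding sequence. Their median GC content was 47.7% in the pooled list, 48.0% in replicate 1 and 47.4% in replicate 2, against 38.2%, 38.2% and 37.0% over all nuclear peaks of each list. Of the vit summits, 8 of 10 lay in coding sequence in the pooled list, 14 of 17 in replicate 1 and 11 of 11 in replicate 2, counting coding sequence of neighbours. Coding sequence made up 73.4% of the 43236 bases of the 6 windows, and held 33.5%, 34.1% and 31.1% of all nuclear summits in these lists. The part of GC content in the vit counts was not tested.

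Genes that act with the vitellogenins were set beside them. Each list was named from general knowledge with earlier results of these data known, and the counts are descriptions. Yolk uptake and endocytosis genes, which include the receptor gene rme-2 and the clathrin gene chc-1, had a summit at 11 of 11 in the pooled list, 10 of 11 in replicate 1 and 11 of 11 in replicate 2. Genes of yolk lipid loading and secretion, among them dsc-4, a homologue of the microsomal triglyceride transfer protein, had one at 5 of 5 in each relaxed list. Regulators of vit transcription, among them the intestinal GATA factor gene elt-2, had 10, 13 and 9 of 14 in the pooled list and in replicates 1 and 2, but these genes were long, with a median of 10770 bp. The median length was 3149 bp for the uptake genes and 4920 bp for the secretion genes. By the same rule 45.5%, 53.0% and 51.9% of all protein-coding genes had a summit in the pooled list and in replicates 1 and 2. Of those of 4 to 6 kb, 58.8%, 66.0% and 66.5% had one.

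Genes known for high transcript levels in somatic tissue were also set beside the vit genes, and the 2 lists of them differed. Of 26 abundant intestinal genes, such as the gut actin gene act-5, 13 had a summit in the pooled list (50%), 12 in replicate 1 (46.2%) and 15 in replicate 2 (57.7%), near the shares of all protein-coding genes. Their median length was 1658 bp. Of 19 abundant muscle genes, such as the myosin heavy chain gene unc-54, 16 had one in the pooled list (84.2%), 18 in replicate 1 (94.7%) and 14 in replicate 2 (73.7%), with a median length of 3793 bp. The shares of protein-coding genes of 4 to 6 kb were 58.8%, 66.0% and 66.5% in the same order of lists. The vit-6 gene had 4 summits in the pooled list, and genes of the related lists matched that number. At least 4 were found there at 2 of 11 uptake, 1 of 5 secretion, 1 of 14 regulator, 0 of 26 intestinal and 2 of 19 muscle genes. These genes are named here after their values were seen. The chc-1 gene, of 5884 bp, had 5 summits, and act-4 was shorter, with 3793 bp. The others were much longer than vit-6, with 12035 bp for rme-8, 14423 bp for sec-23, 26206 bp for daf-16 and 55184 bp for unc-89. Of the 2008 protein-coding genes of 4 to 6 kb, 85 (4.23%) had at least 4 in that list.

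**Figure D4:**
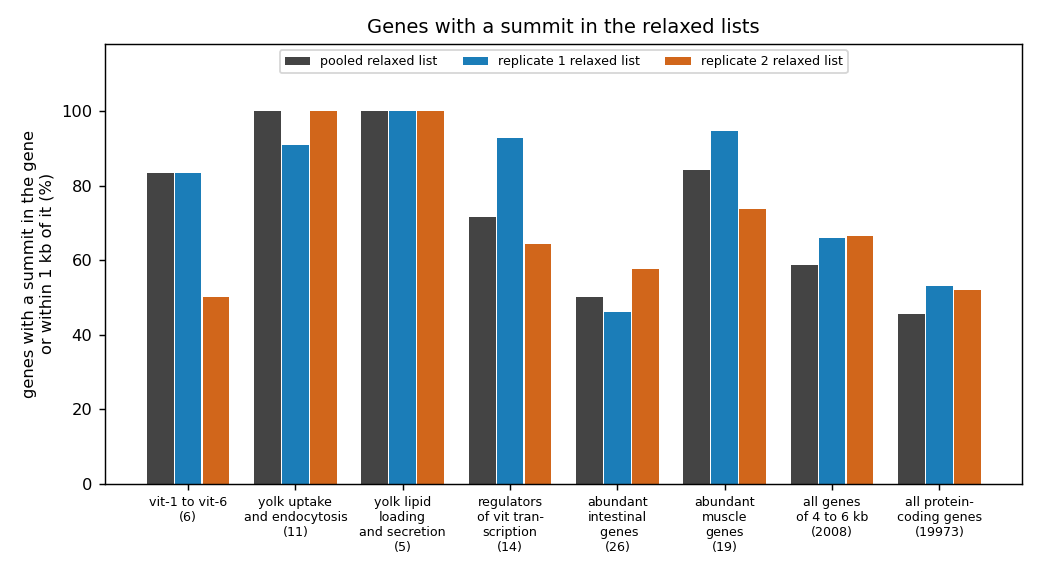
Share of genes with a summit in the gene or within 1 kb in the pooled list and in the lists of replicates 1 and 2, for vit-1 to vit-6, 5 lists of related or abundant somatic genes, all protein-coding genes of 4 to 6 kb and all protein-coding genes, with the number of genes in brackets. The vit genes stand at 5, 5 and 3 of 6, and the abundant intestinal genes at 50%, 46.2% and 57.7%. Gene lengths differ between the lists.

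In the reproducible list 3 of these related genes had a summit. They were rab-11.1, a small GTPase of recycling endosomes (I, 109470 to 109909, rank 297), lin-29, a zinc finger factor of the larval to adult switch (II, 11917708 to 11918147, rank 325), and cpl-1, a cathepsin L protease (V, 16592039 to 16592478, rank 399). The cpl-1 summit lay outside the gene and within 220 bp of a tRNA gene, while the other 2 summits lay in the gene body. Beside the 0 of 6 vit genes, the counts were 1 of 11 for uptake, 0 of 5 for secretion, 1 of 14 for regulators, 1 of 26 for intestinal and 0 of 19 for muscle genes, against 2.73% of all protein-coding genes.

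The best vit summit of the pooled list, at rank 1838, stood below the leading summits in or within 1 kb of the genes of each related list. The caveolin gene cav-1 had rank 993, and the secretory genes sar-1 and sec-23 had ranks 1001 and 1264. The insulin-pathway factor gene daf-16, which acts on vit expression, had rank 1521, and the intestinal saposin-like gene spp-1 had rank 885. Of the muscle genes, the actin gene act-2 had rank 464 and the titin-like gene unc-22 rank 988, and the unc-22 summit lay within 220 bp of a tRNA gene. The summits of cav-1, sar-1, sec-23 and act-2 lay outside the gene, and those of daf-16, spp-1 and unc-22 lay inside it. These genes were named by their rank, from lists that differ from the vit genes in number and length. The sec-23, daf-16 and unc-22 genes span 14423, 26206 and 38311 bp, while cav-1, sar-1, spp-1 and act-2 are shorter than any vit gene. By the same rule 6.31% of all protein-coding genes had a summit among the 1000 strongest peaks of the pooled list. The order therefore cannot show that the vit genes ranked low for their number and length, and it carries no test.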

How the data were processed

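The members and gene lists were chosen with earlier results of these data known. The authors took alignments on ce11 and a control, made relaxed lists for replicate 1, replicate 2 and the pool of both, and passed these 3 through IDR, according to the descriptions deposited with the files. Not given in the sources used here are the aligner, the peak caller, their versions, the read depth and the IDR cutoff. The deposited values used were the signal and the −log10 q value of each peak. The control was not analysed here, nor was any immunoprecipitation from untagged animals.

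Mitochondrial peaks were left out before ranking. Genes came from Ensembl release 115 and sequence from the RefSeq copy of WBcel235, and no nuclear peak ended beyond its chromosome there. A gene held a peak when the summit lay in the gene or within 1 kb. Words of 36 bases, with 50 and 100 as alternatives, were counted over the genome on both strands. Genes were aligned globally with biopython 1.88 (match 1, mismatch -1, gap open -3, gap extension -0.5). With 1 group of 2 replicates no test between groups existed, and counts were set beside all genes. The counting was tested on simulated peaks and sequence.

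Named genes were all members and their neighbours, related genes with a reproducible summit, and the 2 related genes per list with the best pooled rank. Those given in a clause as examples of a list were chosen for their known role. Related genes with at least 4 pooled summits were named after their values were seen. Tables were handled in pandas 2.3.3 and numpy 2.4.6 under Python 3.11.15, intervals came from scipy 1.17.1 and plots from matplotlib 3.10.9.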

Additional observations from a re-analysis of the deposited data

How the results depend on the processing

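The count of vit genes in the reproducible list was 0 with the gene body alone, with flanks of 500 bp or 2 kb, by any overlap of the peak, and when it was replaced by the 440 strongest nuclear peaks of a single replicate (0 without replicate 1 and 0 without replicate 2). The shares of all protein-coding genes were 1.01%, 2.18%, 3.64%, 2.88%, 2.83% and 2.79% in the same order. With the gene body alone the count was 3 in the pooled list and 3 in replicate 1, after 5 in each with flanks, because the vit-4 and vit-5 summits lie outside the genes (29.4% and 35.6% of all protein-coding genes). Among genes of 4 to 6 kb with at least 50% unique words these shares were 44.8% and 53.9%. They were 9.76% and 7.32% among those with under 50%, which include vit-3, vit-4 and vit-5. Among the 5000 peaks with the highest signal the vit count was 3 in the pooled list and 3 in replicate 1 (25.7% and 25.3% of all protein-coding genes), and by −log10 q it was also 3 in each (25.7% and 25.3%). Among the 1000 strongest it was 0 in the pooled list, 1 in replicate 1 and 0 in replicate 2, against 6.31%, 6.25% and 6.57% of all protein-coding genes. The count of 3 in replicate 2 was the same in its other settings. There the share of all protein-coding genes ran from 25.5% (5000 strongest peaks) to 61.4% (flanks of 2 kb). The best rank in replicate 1 was 811 with 1 kb flanks and 1279 with flanks of 500 bp or the gene body alone, which moves the leading place from vit-4 to vit-2. With an overlap of 50% of the peak, 6 vit summits of each replicate were met by the other, after 9 and 8, against 31.1% of all peaks of replicate 1 and 32.1% of replicate 2. The median share of unique words over the 6 gene windows was 72.3% at 36 bases, 77.8% at 50 bases and 88.9% at 100 bases, as longer words are repeated less often. No paired analysis was possible because the design has 1 group. Read depth is unknown, so a weak vit peak cannot be told from noise by counting error.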
